A study of Mus musculus with 30 samples.

Results

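The genes that encode glycogen synthase kinase 3 (Gsk3a, Gsk3b) and 8 genes of the Wnt/β-catenin pathway (Ctnnb1, Lef1, Tcf7l2, Axin2, Nkd1, Znrf3, Rnf43, Fzd7) were followed through 30 RNA-seq libraries of mouse prefrontal cortex. The 10 genes were listed by symbol, and all 10 were found among the 18240 genes of the deposited table. All mice were C57BL/6J, at postnatal day 40. HT mice, heterozygous for Adnp, received lithium (3 female and 4 male libraries), fluoxetine (4 and 4) or vehicle (4 and 3), and WT mice received vehicle (4 and 4). No WT mice with either drug are among the samples, so each drug was compared within HT mice. The sources used here do not give the doses, the length of treatment or which stretch of Adnp is missing from the mutant allele.

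In the absence of a Wnt signal, GSK3 phosphorylates β-catenin inside a destruction complex built on axin and APC, and β-catenin is then degraded. A Wnt ligand bound to a Frizzled receptor and its LRP co-receptor halts that complex, and β-catenin enters the nucleus, where it joins TCF/LEF factors to raise the transcription of target genes, several of which (Axin2, Nkd1, Znrf3, Rnf43) encode inhibitors of the same pathway. Lithium inhibits GSK3 directly as an enzyme, so that a response of the pathway would be read from its target genes rather than from the level of Gsk3a or Gsk3b mRNA. The lithium comparison asks whether those target transcripts differed after treatment.

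The DNA that TCF/LEF factors bind has the core ATCAAAG, which reads as CTTTGAT on the other strand. RefSeq windows on GRCm38.p6 from 250 bases before to 50 bases after an annotated start were searched for it on both strands. Of the 10 genes 9 were matched, with 15 windows, and 0 windows held the core, against 3.73% of all 32851 windows. Among 75 matched genes of further GSK3 and Wnt lists, 5 of 97 windows (5.15%) held it, those of Akt2, Sp5, Tnfrsf19, Wnt11 and Wnt5b. Stretches of 120 bases directly upstream of the RefSeq start are printed, 5′ to 3′ on the coding strand, for the feedback inhibitors Axin2, Nkd1 and Nkd2 described below and for Sp5, a β-catenin target gene whose core is set in capitals at position -104 from the start. They lie at chr11:108920229-108920348 (plus strand, Axin2), chr8:88527513-88527632 (plus, Nkd1), chr13:73847632-73847751 (minus, Nkd2) and chr2:70474803-70474922 (plus, Sp5). The Nkd1 stretch lies inside the GENCODE M21 gene (chr8:88521354-88594884), which starts upstream of that RefSeq start. Those of Axin2, Nkd2 and Sp5 end directly before the GENCODE gene start.
Axin2: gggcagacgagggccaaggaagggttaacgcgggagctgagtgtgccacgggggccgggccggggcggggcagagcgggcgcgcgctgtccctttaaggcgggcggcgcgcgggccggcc
Nkd1: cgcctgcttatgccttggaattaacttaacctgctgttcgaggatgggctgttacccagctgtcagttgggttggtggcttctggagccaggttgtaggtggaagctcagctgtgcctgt
Nkd2: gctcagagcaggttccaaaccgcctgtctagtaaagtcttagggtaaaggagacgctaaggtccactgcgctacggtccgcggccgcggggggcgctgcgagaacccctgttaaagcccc
Sp5: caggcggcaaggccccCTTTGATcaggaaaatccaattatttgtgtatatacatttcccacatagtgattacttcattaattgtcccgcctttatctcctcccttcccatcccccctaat
The stretches differ in base composition, with a GC content of 78.3% upstream of Axin2 and 44.2% upstream of Sp5. A match is a description of these letters only, and target sites elsewhere in a gene were not searched.

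Reads counted in genes numbered 23771758 to 34307061 per library, and levels are given as normalized read counts (reads divided by 1 size factor per library). Adnp, the targeted gene, counted 1886 to 2491 in the 22 HT libraries and 1703 to 2228 in the 8 WT libraries. Adnp alone thus averaged higher in HT (2196) than in WT libraries (1898). The overlapping gene model Gm20716 counted 1049 to 1850 in HT and 2167 to 2622 in WT libraries. The sum of Adnp and Gm20716 was 3404 to 3887 in HT and 4226 to 4433 in WT libraries. Markers of cortical excitatory neurons were present in every library, summed to 44206 to 74500, and so were markers of neighbouring regions, with striatal markers at 4596 to 36949. HT lithium male 4 stood apart, with the highest summed markers of meningeal fibroblasts (11943), mural cells (9546), thalamus (9553) and olfactory bulb (19060) and the lowest of cortical excitatory neurons (44206). HT vehicle female 1 came next for thalamus (8357) and olfactory bulb (17891). In bulk tissue, fewer cells of a type and less RNA per cell cannot be told apart. The labels number the replicates without saying that each is a separate mouse, so each p-value reflects how much these libraries vary, which may be technical in part.

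Per kb of exon, the β-catenin gene Ctnnb1 was the most abundant of the 10 (mean normalized count 2769 per kb over 30 libraries), followed by Gsk3a (2151 per kb) and Gsk3b (550 per kb). The target and feedback genes lay well under these: Axin2 reached 172, Nkd1 119, Znrf3 61.2 and Fzd7 46.1 per kb. The TCF/LEF genes Lef1 (19.4 per kb) and Tcf7l2 (11.9 per kb) and the ubiquitin ligase gene Rnf43 (12.2 per kb) were the least abundant. The spread between libraries of a group, as a share of the mean, was 3.86% for Ctnnb1, 5.84% for Gsk3a, 5.3% for Gsk3b and 4.96% for Axin2, and it was widest for Fzd7 (24.7%). For Rnf43 the spread was 11.5% and counting alone would give 11.3%, so that this gene was limited by depth, whereas for Fzd7 counting would give 7.1%. All 10 genes passed the filter on low counts (mean of at least 10).

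Lithium was first set against vehicle in HT mice of both sexes. A gene was called at a Benjamini-Hochberg adjusted p under 0.05 in limma over 16824 genes. None (0) of the 10 genes was called by limma, edgeR or DESeq2 in a comparison where limma called 15 genes in all (0.0892%), every one of them higher under lithium. At an unadjusted p under 0.05 there were 3 of the 10 (Fzd7, Axin2 and Lef1, each higher), while 5.72% of all genes were under that level. The median log2 fold change of the 10 genes was 0.013, with 5 positive and 5 negative, beside -0.0039 over all genes tested.

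The kinase genes showed little difference, with narrow intervals. Gsk3a (chromosome 7, 25228258 to 25237851, minus strand, GRCm38) had 5086, 6159 and 6683 normalized counts as the lowest, median and highest of 7 HT lithium libraries, against 5718, 6228 and 6585 in 7 HT vehicle libraries. Gsk3b (chromosome 16, 38089001 to 38246084, plus strand) had 4779, 5495 and 5545 under lithium, against 5111, 5483 and 5695 under vehicle. For both genes the lowest value was that of HT lithium male 4, and Gsk3b in lithium female 3 (4968) also lay under the lowest vehicle library. The other lithium libraries lay within or close to the vehicle range. The log2 fold change was -0.023 for Gsk3a (95% interval -0.12 to 0.073, limma adjusted p = 0.946) and -0.027 for Gsk3b (-0.11 to 0.060, limma adjusted p = 0.924). In linear terms the intervals ran from -7.94% to 5.22% for Gsk3a and from -7.64% to 4.25% for Gsk3b. Gsk3a shares 820 of its 2900 exonic bases with the antisense gene 9130221H12Rik, whose mean count was 156, and the sources used here do not say how strand was handled in counting.

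Ctnnb1, which encodes β-catenin, is regulated mainly at the level of protein stability. Its counts (chromosome 9, 120929216 to 120960507, plus strand) were 13309, 14242 and 14784 as lowest, median and highest under lithium, against 14094, 14500 and 15786 under vehicle. This was a log2 fold change of -0.047 (95% interval -0.12 to 0.024, limma adjusted p = 0.879), which in linear terms spans -7.85% to 1.69%. Ctnnb1 shares 759 of 5192 exonic bases with Ulk4 on the opposite strand, whose mean count was 165. The levels under lithium lay within the range of the vehicle libraries or a little under it.

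Of the TCF/LEF factors, Lef1 was higher under lithium without reaching the threshold, and Tcf7l2 differed little. Lef1 (chromosome 3, 131110471 to 131224356, plus strand) counted 190, 154 and 207 in lithium females 1 to 3 and 199, 196, 182 and 191 in lithium males 1 to 4, against 164, 166, 163 and 151 in vehicle females and 171, 191 and 147 in vehicle males. Of the 7 lithium libraries only female 2 lay under the vehicle median of 164, and 5 of the 7 vehicle libraries lay within the lithium range. The difference was 0.18 on the log2 scale (95% interval 0.022 to 0.34, unadjusted p = 0.0271, limma adjusted p = 0.858), and it was 0.18 in females and 0.18 in males taken alone. These values rest on few libraries, since leaving out single ones gave 0.087 (without lithium female 3) to 0.30 in females and 0.083 (without vehicle male 3) to 0.27 in males, and regional marker covariates gave 0.088 in males. Lef1 shares 1208 exonic bases with the antisense gene Gm43352, which was not among the genes analysed here. Tcf7l2, a TCF gene strongly expressed in thalamus, counted 104 ± 14.9 under lithium and 105 ± 10.2 under vehicle (SD, n = 7 each), a log2 fold change of -0.034 (95% interval -0.26 to 0.19).

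Axin2 encodes the inducible axin scaffold of the destruction complex and is a widely used readout of β-catenin activity. Its counts (chromosome 11, 108920349 to 108950783, plus strand) were 964, 927 and 940 in lithium females 1 to 3 and 1087, 1019, 955 and 1001 in lithium males 1 to 4, against 966, 961, 947 and 820 in vehicle females and 909, 861 and 891 in vehicle males. In females the groups overlapped, and vehicle female 4 was the lowest of all 30 libraries. In males every lithium library lay above every vehicle library, a separation found in either direction for 1 of the 10 genes and for 10% of all genes tested with these 4 against 3 libraries. In females 0 of the 10 genes and 3.6% of all genes were separated in this way, and with both sexes joined 0 and 0.0773%. Over both sexes the log2 fold change was 0.11 (SE 0.0409, 95% interval 0.030 to 0.20, unadjusted p = 0.00971, limma adjusted p = 0.794), or 8.21% higher. The result did not pass the threshold over all genes.

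**Figure D1:**
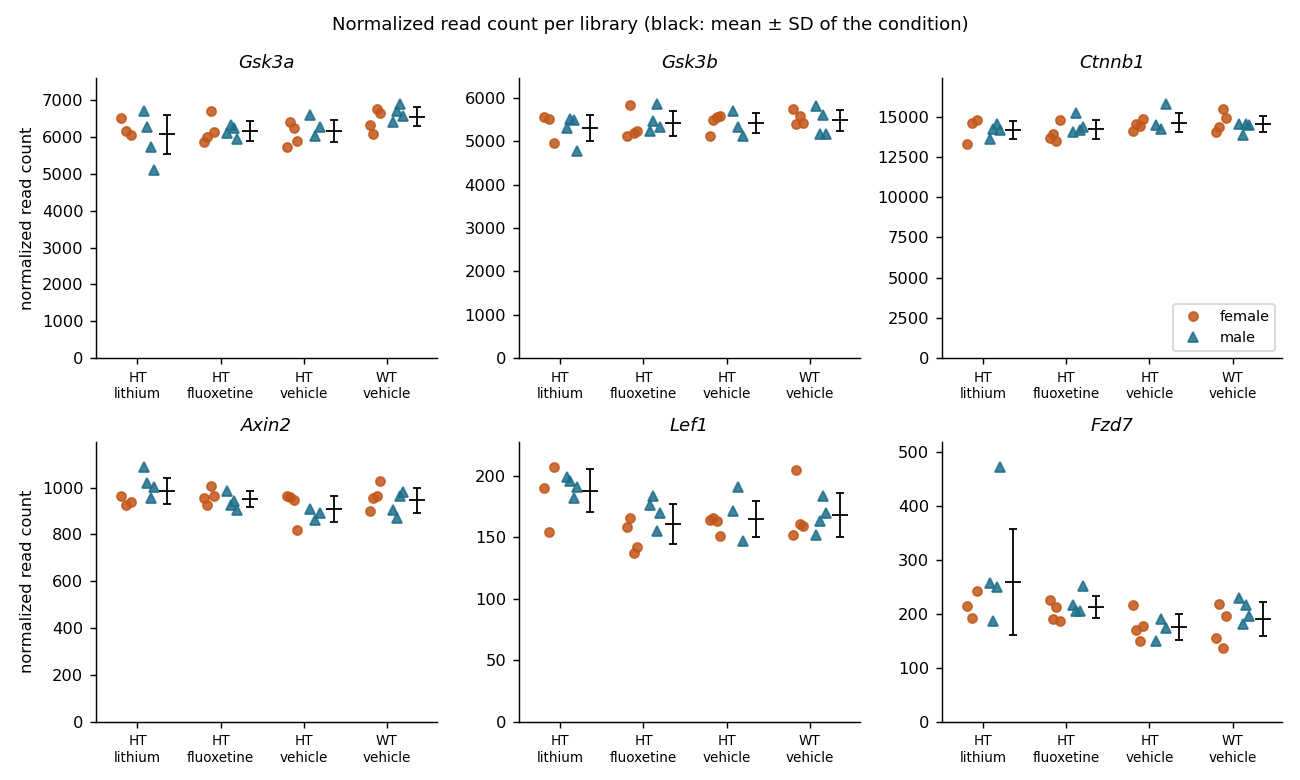
Normalized read count (vertical axes, from 0) of Gsk3a, Gsk3b, Ctnnb1, Axin2, Lef1 and Fzd7 in each library, by condition, with females as circles, males as triangles and the mean ± SD of each condition in black. Gsk3a, Gsk3b and Ctnnb1 overlap across conditions, and HT lithium male 4 stands alone for Fzd7 at 472.

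Fzd7, a Frizzled receptor gene that is itself a Wnt target in some other tissues, had the largest difference of the 10. Its counts (chromosome 1, 59482424 to 59486955, plus strand) were 215, 192 and 242 in lithium females 1 to 3 and 257, 187, 250 and 472 in lithium males 1 to 4, against 217, 171, 149 and 178 in vehicle females and 150, 191 and 174 in vehicle males. Male 4 stood alone at 472, and the other 6 lithium libraries (187 to 257) lay in the upper part of the vehicle range or above it. The log2 fold change was 0.48 (SE 0.14, 95% interval 0.19 to 0.77, unadjusted p = 0.00197, limma adjusted p = 0.535), or 1.40-fold. Without HT lithium male 4 it was 0.35 (limma adjusted p = 0.859), and with the summed striatal, olfactory bulb and thalamus markers as covariates 0.36 (limma adjusted p = 0.149).

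Markers of the meninges and of mural cells were read beside Fzd7. All 8 meningeal fibroblast markers had a positive lithium fold change, with 0 of 8 called by limma and 5 at an unadjusted p under 0.05, and their sum was 4254 to 11943 under lithium (median 5662), against 2922 to 5323 under vehicle (median 4941). Of 8 mural markers 6 were positive and 0 were called, and their sum was 6605 to 9546 under lithium, against 6171 to 7517 under vehicle. None of the markers of either list was at 0 in any library. Without HT lithium male 4 the meningeal sum was 4254 to 6845 in the other 6 lithium libraries. After group means were subtracted, Fzd7 had a Pearson's r over 30 libraries of 0.788 with the mural sum and 0.741 with the meningeal sum. It was 0.782 with the summed thalamus markers, 0.682 with those of olfactory bulb and -0.645 with those of cortical excitatory neurons. Beyond the covariate value given, the part of these cell types and regions in the level of Fzd7 was not tested.

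**Figure D2:**
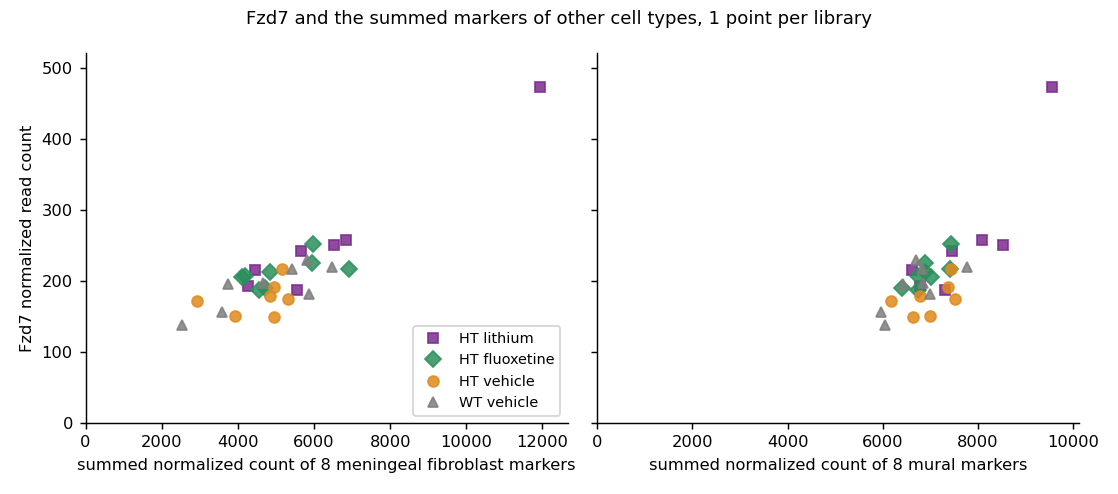
Fzd7 normalized read count (vertical axis) against the summed normalized count of 8 meningeal fibroblast markers (left) or 8 mural markers (right), 1 point per library, by condition. HT lithium male 4 is highest on all axes, with Fzd7 at 472, a meningeal sum of 11943 and a mural sum of 9546.

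The other feedback inhibitors differed by less than the within-group SD pooled over 30 libraries. That SD was 48.6 for Nkd1, 25.9 for Znrf3 and 9.2 for Rnf43. For Nkd1 the difference exceeded the SD of the vehicle libraries alone. Nkd1, which binds Dishevelled and dampens the Wnt signal, counted 575 ± 48.2 under lithium and 541 ± 16.1 under vehicle (SD, n = 7 each), a log2 fold change of 0.084 (95% interval -0.053 to 0.22, limma adjusted p = 0.879). Znrf3 and Rnf43 encode membrane ubiquitin ligases that remove Frizzled receptors from the cell surface. Znrf3 counted 475 ± 27.9 under lithium and 476 ± 18.9 under vehicle, with a log2 fold change of -0.0098 (95% interval -0.10 to 0.084). Rnf43 counted 84 ± 6.44 under lithium and 81.6 ± 13.2 under vehicle, with a log2 fold change of 0.035 (95% interval -0.16 to 0.23). The signs of the differences of Znrf3, Rnf43, Gsk3a and Tcf7l2 changed when single libraries were left out.

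**Figure D3:**
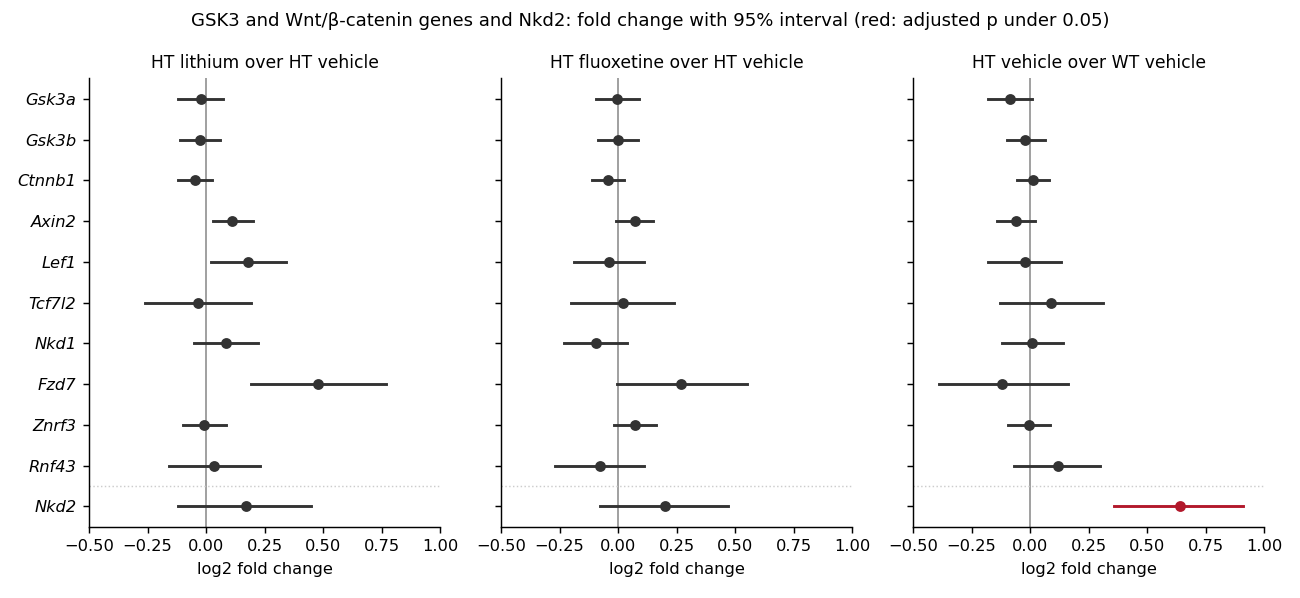
Log2 fold change (points) with its 95% interval (lines) for the 10 genes and Nkd2 in 3 comparisons: HT lithium over HT vehicle, HT fluoxetine over HT vehicle, and HT vehicle over WT vehicle, both sexes. Nkd2 in HT against WT vehicle (0.64, red) is the only call. All 3 panels share the HT vehicle libraries, as the reference for both drugs and as the group compared with WT.

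Taken by sex, the lithium differences of Fzd7 and Axin2 were larger in males, but the difference between the sexes was not called. In females 0 of 10 genes were called by limma, edgeR or DESeq2, with 0 under an unadjusted p of 0.05, where limma called 0% of all genes and 3.55% had an unadjusted p under 0.05. In males 0 of 10 were called by the same 3 tools, with 2 under an unadjusted p of 0.05, where limma called 0.0773% of all genes and 13.8% had an unadjusted p under 0.05. Fzd7 had a log2 fold change of 0.28 in females (95% interval -0.13 to 0.69) and 0.68 in males (0.27 to 1.09, limma adjusted p = 0.281). Axin2 had 0.034 in females (-0.085 to 0.15) and 0.19 in males (0.075 to 0.31, limma adjusted p = 0.295). The lithium effect in females minus that in males was -0.40 for Fzd7 (95% interval -0.98 to 0.17, limma adjusted p = 0.574) and -0.16 for Axin2 (-0.33 to 0.0084, limma adjusted p = 0.494). In that interaction 0 of the 10 genes were called by limma, edgeR or DESeq2 and 0 had an unadjusted p under 0.05, while limma called 0% of all genes and 10% had an unadjusted p under 0.05. Without HT lithium male 4 the Fzd7 effect in males was 0.42 (limma adjusted p = 0.726) and its difference between the sexes -0.14. That difference was -0.12 with the regional marker covariates and -0.044 without both libraries that stood apart.

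Fluoxetine, a serotonin reuptake inhibitor, gave a second drug arm set against the same HT vehicle libraries. Here 0 of the 10 genes were called by limma, edgeR or DESeq2 and 0 had an unadjusted p under 0.05, where limma called 0.0357% of all genes and 2.63% had an unadjusted p under 0.05. Fluoxetine and vehicle libraries were fully separated for 0 of the 10 genes and for 0.0535% of all genes. Fzd7 counted 187, 209 and 251 as lowest, median and highest of 8 fluoxetine libraries, against 149, 174 and 217 under vehicle. All 8 fluoxetine libraries thus lay above the vehicle median, and the groups overlapped. The log2 fold change of Fzd7 was 0.27 (95% interval -0.0026 to 0.55, unadjusted p = 0.052, limma adjusted p = 1), and 0.12 with the regional marker covariates. For Axin2, with 951 ± 33.6 under fluoxetine (SD, n = 8) and 908 ± 54.5 under vehicle (SD, n = 7), it was 0.072 (95% interval -0.0089 to 0.15). Both drug comparisons share the vehicle libraries, so their values stand side by side without a test of likeness.

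Lithium was also set against fluoxetine directly. The fold changes do not use the vehicle libraries, while the spread behind the intervals and p-values comes from the fit of all 30 libraries. Again 0 of the 10 genes were called by limma, edgeR or DESeq2, where limma called 0% of all genes, and 2 had an unadjusted p under 0.05, beside 6.86% of all genes. Those were Lef1 and Nkd1. Lef1 counted 154, 191 and 207 as lowest, median and highest under lithium, against 137, 162 and 184 under fluoxetine. All lithium libraries but female 2 and male 3 were above every fluoxetine library. The log2 fold change was 0.22 (95% interval 0.066 to 0.37, unadjusted p = 0.00663, limma adjusted p = 0.603). Nkd1 counted 526, 570 and 656 under lithium, against 456, 492 and 618 under fluoxetine, a log2 fold change of 0.18 (95% interval 0.046 to 0.31, unadjusted p = 0.01, limma adjusted p = 0.606). The vehicle level of Nkd1 (541 ± 16.1) lay between those of the drugs. After group means were subtracted, Nkd1 had a Pearson's r over 30 libraries of -0.68 with the summed oligodendrocyte markers. It was -0.592 with the striatal and 0.653 with the endothelial sum. The part of oligodendrocytes and endothelial cells in the level of Nkd1 was not tested. Fzd7 had a log2 fold change of 0.21 between the drugs, and 0.076 without HT lithium male 4.

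The genotype was compared in vehicle-treated mice, with the same HT vehicle libraries that served as reference for both drugs. Of the 10 genes 0 were called by limma, edgeR or DESeq2 and 0 had an unadjusted p under 0.05, where limma called 123 of all genes (0.731%) and 6.6% had an unadjusted p under 0.05. HT and WT vehicle libraries were fully separated for 0 of the 10 genes and for 0.452% of all genes. Their log2 fold changes ran from -0.12 to 0.12. Gsk3a counted 5718, 6228 and 6585 as lowest, median and highest in 7 HT vehicle libraries, against 6080, 6598 and 6888 in 8 WT vehicle libraries, with wide overlap. Its log2 fold change was -0.084 (95% interval -0.18 to 0.0085, unadjusted p = 0.0732, limma adjusted p = 0.839). Axin2 had -0.062 (95% interval -0.14 to 0.019). All 8 markers of cortical excitatory neurons were negative in this comparison as well (median -0.095), with 0 called by limma. After group means were subtracted, Gsk3a had a Pearson's r of 0.75 with their sum over 30 libraries. Their part in the level of Gsk3a was not tested.

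A paralog of Nkd1 on the list of other β-catenin target genes was higher in HT mice. Nkd2 (chromosome 13, 73818534 to 73847631, minus strand), a second Dishevelled-binding inhibitor of Wnt signalling, was the 1 gene called among the 101 tested genes of the further pathway lists, where limma called 0.624% of all genes as higher, and edgeR and DESeq2 also called it alone. It counted 233, 144, 154 and 132 in HT vehicle females 1 to 4 and 144, 181 and 152 in HT vehicle males, against 80.7, 149, 80.1 and 88.5 in WT vehicle females and 101, 111, 98.4 and 129 in WT vehicle males. The groups overlapped only through WT female 2, at 149. HT vehicle female 1, the library with high thalamus and olfactory bulb markers, was the highest. The log2 fold change was 0.64 (SE 0.134, 95% interval 0.36 to 0.91, limma adjusted p = 0.0133), or 1.55-fold. The call was lost without HT vehicle male 2 (0.59, limma adjusted p = 0.0618) and in a fit of the compared groups alone (0.64, limma adjusted p = 0.0728), and it held without each of the other 14 libraries.

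In HT mice Nkd2 averaged 188 ± 43.3 under lithium (SD, n = 7), 186 ± 33 under fluoxetine (n = 8) and 163 ± 34.2 under vehicle (n = 7). WT vehicle libraries had 105 ± 24.2 (n = 8). All 22 HT libraries counted 132 or more. Lithium over vehicle in HT mice gave a log2 fold change of 0.17 (95% interval -0.12 to 0.45, limma adjusted p = 0.879), and its sign was negative with the regional markers as covariates (-0.0089). With the same covariates, HT over WT vehicle was 0.62 (limma adjusted p = 1.91e-06). Beside Nkd2, 7 of 8 markers of oligodendrocyte precursors had a negative log2 fold change in HT over WT vehicle mice, and Pdgfra (-0.18, limma adjusted p = 0.0303) and Neu4 (-0.21, limma adjusted p = 0.0466) were called. Their sum was 6414 to 8099 in HT vehicle and 7151 to 8832 in WT vehicle libraries, none was at 0, and their part in the result was not tested. Nkd1 gave no such difference, with 541 ± 16.1 in HT vehicle and 541 ± 57.7 in WT vehicle libraries.

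**Figure D4:**
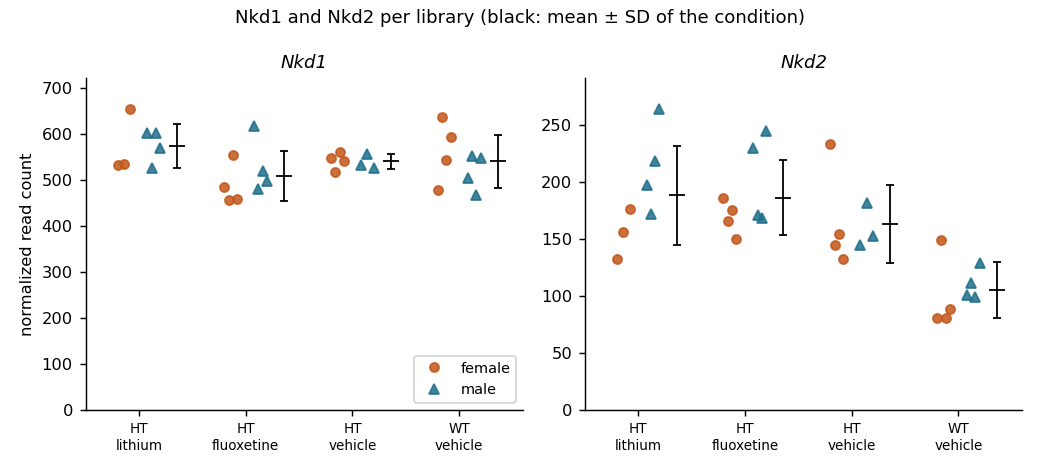
Normalized read count (vertical axes, from 0) of Nkd1 and Nkd2 in each library, by condition, with females as circles, males as triangles and the mean ± SD in black. Nkd2 lies at 132 or more in the 22 HT libraries and at 80.1 to 149 in the 8 WT libraries, and Nkd1 overlaps in all conditions.

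Lithium-treated HT mice were set against vehicle-treated WT mice, a contrast that joins genotype and drug. It shares the WT vehicle libraries with the genotype comparison, so its values are not independent of those given there. Of the 10 genes 0 were called by limma, edgeR or DESeq2, where limma called 332 of all genes (1.97%), and 3 had an unadjusted p under 0.05, beside 17.7% of all genes. Those were Fzd7, at 0.36 (95% interval 0.088 to 0.64, limma adjusted p = 0.162), Gsk3a, at -0.11 (-0.20 to -0.014, limma adjusted p = 0.218), and Lef1, at 0.16 (0.0048 to 0.31, limma adjusted p = 0.266), or 0.093 with the regional marker covariates. Fzd7 was called only when HT lithium male 2, at 187 the lowest of the lithium libraries, was left out (0.46, limma adjusted p = 0.044), and its log2 fold change was 0.23 without HT lithium male 4. Gsk3a counted 5086 to 6683 in the 7 HT lithium libraries, against 6080 to 6888 in WT vehicle libraries. Without HT lithium male 4 its log2 fold change was -0.071 (limma adjusted p = 0.484). All 8 cortical excitatory neuron markers were negative here too (median -0.15), with 0 called by limma and 2 at an unadjusted p under 0.05. Nkd2 rose in this contrast too, by 0.80 (95% interval 0.53 to 1.08, limma adjusted p = 0.000795) or 1.75-fold, as the only called gene of the further lists in limma and edgeR. Of all genes, limma called 1.4% higher and 0.577% lower here. DESeq2, which called 486 of 16818 genes in this contrast, called Nkd2 and Rspo3, which encodes an R-spondin. Rspo3 counted 346 ± 40.8 in HT lithium (SD, n = 7) and 285 ± 12.9 in WT vehicle libraries (SD, n = 8).

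Over all conditions, females were compared with males. Of the 10 genes 0 were called by limma, edgeR or DESeq2 and 0 had an unadjusted p under 0.05, where limma called 0.214% of all genes (0.0654% higher in females) and 8.05% had an unadjusted p under 0.05. Fzd7 had a log2 fold change of -0.16 (95% interval -0.36 to 0.036) and Lef1 of -0.081 (-0.19 to 0.027). Among the further lists, Fzd4, the Frizzled receptor for Norrin in vessels, was the 1 call, where 0.149% of all genes were called lower in females. It counted 379, 412 and 523 as lowest, median and highest of 15 female libraries, against 435, 499 and 564 of 15 male libraries, so that the groups overlapped over much of their range. Its log2 fold change was -0.22 (95% interval -0.32 to -0.13, limma adjusted p = 0.0325). All 8 endothelial markers had a negative log2 fold change as well, of which Slc2a1 was called (-0.16, limma adjusted p = 0.0115). Their sum was 10012 to 11889 in females (median 10648) and 10756 to 12946 in males (median 11601). All 8 mural markers (median log2 fold change -0.13) and 7 of 8 meningeal markers (median -0.25) were negative too, with 0 called by limma and 5 and 3 at an unadjusted p under 0.05. The mural sum was 5958 to 7757 in females and 6700 to 9546 in males, and the meningeal sum 2537 to 6462 in females and 3928 to 11943 in males. None of these markers was at 0, and their part in the Fzd4 result was not tested. The Fzd4 call was lost without 13 of the 30 libraries one at a time (highest limma adjusted p = 0.0799) without both libraries that stood apart (0.0717) and with the replicate number as a block (limma adjusted p = 0.052).

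The rest of the pathway was read from 9 lists that hold 112 genes, of which 105 were in the table and 101 were tested. Under lithium in HT mice of both sexes 0 of the 101 were called by limma, edgeR or DESeq2, and 5 had an unadjusted p under 0.05 in limma, beside 5.72% of all genes. Their median log2 fold change was 0.037, with 63 positive and 38 negative, beside -0.0039 over all genes, of which 47.8% were positive. In females alone 0 were called by the same tools, 42 were positive and 1 had an unadjusted p under 0.05, beside 50.4% and 3.55% of all genes. In males 0 were called, 74 were positive and 24 had an unadjusted p under 0.05, beside 49.2% and 13.8% of all genes. Fluoxetine over vehicle gave 0 calls by the same tools, with 3 genes at an unadjusted p under 0.05 in limma and 52 positive, beside 2.63% and 48.7% of all genes. Lithium over fluoxetine gave 0 calls as well, with 9 genes at an unadjusted p under 0.05 and 60 positive, beside 6.86% and 49.4% of all genes.

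By role, the destruction complex genes and the nuclear partners of β-catenin had the medians nearest 0. The 15 destruction complex and transducer genes had a median log2 fold change of -0.0097 under lithium, with 7 positive. Per kb its most abundant genes were the scaffold gene Apc, at 19743 ± 2325 under lithium and 19082 ± 2130 under vehicle (SD, n = 7 each), and Fbxw11, which encodes a ubiquitin ligase subunit that recognizes phosphorylated β-catenin, at 4076 ± 165 under lithium and 4206 ± 202 under vehicle. The 12 nuclear partners of β-catenin had a median of 0.012 and 7 positive. They were led per kb by Ctnnbip1, an inhibitor that binds β-catenin (1105 ± 86.8 under lithium and 1013 ± 92 under vehicle), and by the coactivator gene Pygo2 (1198 ± 61.3 under lithium and 1206 ± 32.3 under vehicle). Among 9 GSK3 regulators, which include Akt1, a kinase that phosphorylates and restrains GSK3, 2 were positive and the median was -0.070. With the regional marker covariates 0 of these 9 were positive (median -0.045, and -0.092 in males alone), and 0 were called. Among 9 neuronal GSK3 substrates, led by the microtubule protein genes Mapt and Map1b, 3 were positive and the median was -0.031. Mapt, which encodes tau, counted 13866 ± 1203 under lithium and 14530 ± 860 under vehicle.

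Target genes, and genes that act outside the cell or at its surface, had medians of 0.10 or more over both sexes. The ligand and secretion genes (0.019) were the exception. With the regional marker covariates the medians were 0.073 for secreted and membrane inhibitors, 0.045 for receptors and -0.012 for ligand and secretion genes. Of 10 secreted and membrane Wnt inhibitors 9 were positive, with a median log2 fold change of 0.20, which was 0.096 without HT lithium male 4. By sex, 2 of the 10 were positive in females (median -0.069) and 9 in males (median 0.40). Frzb, a secreted Frizzled-related protein, counted 1001 ± 248 under lithium and 793 ± 167 under vehicle (SD, n = 7 each), a log2 fold change of 0.31 (95% interval -0.0075 to 0.63, limma adjusted p = 0.873) that was 0.095 with the regional marker covariates, with 752, 934 and 1506 as lowest, median and highest under lithium, against 639, 778 and 1126 under vehicle. It averaged 850 ± 117 in lithium females (n = 3) and 838 ± 206 in vehicle females (n = 4), and 1113 ± 272 in lithium males (n = 4) and 733 ± 104 in vehicle males (n = 3). Dkk3, a Dickkopf-family gene and the most abundant of that list per kb, counted 8268 ± 941 under lithium and 8476 ± 1099 under vehicle. The 14 receptors and co-receptors had a median of 0.11 and 11 positive (0.061 without HT lithium male 4; 6 positive in females, 14 in males), and the 15 ligand and secretion genes 0.019 and 10 positive. The leading receptor genes Fzd3 (3490 ± 243 under lithium and 3585 ± 250 under vehicle) and Ryk (623 ± 76.4 under lithium and 600 ± 49.6 under vehicle) differed by less than their SD. So did Porcn, which encodes the enzyme that acylates Wnt proteins (1576 ± 116 under lithium and 1614 ± 137 under vehicle), and the ligand gene Wnt7b (1430 ± 131 under lithium and 1495 ± 132 under vehicle). The 6 R-spondin genes and receptors had a median of 0.17 (-0.11 in females and 0.36 in males), and -0.050 with the regional markers as covariates. Its leading genes were the receptor gene Lgr4, at 789 ± 176 under lithium and 709 ± 126 under vehicle, and Rspo2, at 511 ± 82.2 under lithium and 546 ± 78.9 under vehicle.

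Of 11 other β-catenin target genes 10 were positive, with a median of 0.10. It was 0.11 without HT lithium male 4 and 0.056 with the regional marker covariates. By sex the median was 0.053 in females, with 6 positive, and 0.28 in males, with 9 positive. In males it was 0.099 with the covariates. Id2, an inhibitor of helix-loop-helix factors, counted 2475, 2576 and 2799 as lowest, median and highest under lithium, against 2153, 2486 and 2682 under vehicle, a log2 fold change of 0.10 (95% interval 0.012 to 0.20, limma adjusted p = 0.858). Tnfrsf19, a receptor gene of the TNF family, counted 1948 ± 151 under lithium and 1915 ± 125 under vehicle. Beside these lists, all 8 olfactory bulb markers were positive under lithium (median 1.03) and all 8 striatal markers negative (median -0.70), with 0 of either list called by limma. In males alone all 8 olfactory bulb markers were positive and all 8 striatal markers negative (median -1.59), while in females 3 of 8 olfactory bulb markers (median -0.012) and all 8 striatal markers (median 0.22) were positive. The olfactory bulb sum was 2883 to 19060 under lithium, against 2539 to 17891 under vehicle, and the striatal sum 4596 to 13672 under lithium, against 4748 to 22880 under vehicle. Beyond the covariate values given, the part of these regions in the medians was not tested.

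**Figure D5:**
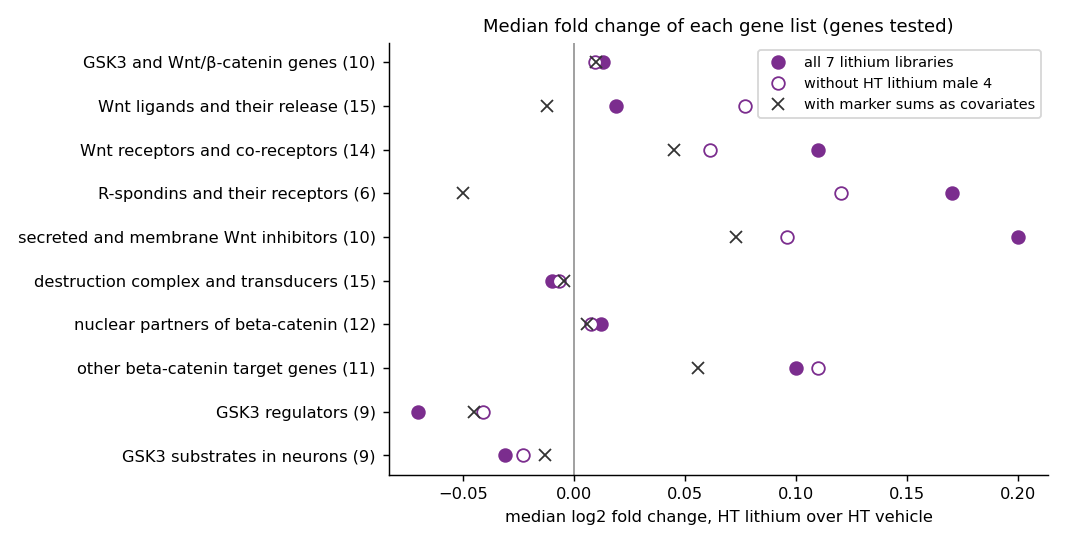
Median log2 fold change of HT lithium over HT vehicle (horizontal axis) for each gene list, with the number of genes tested in brackets: all libraries (filled), without HT lithium male 4 (open) and with striatal, olfactory bulb and thalamus marker sums as covariates (crosses). The median of the secreted and membrane inhibitors is 0.20, and 0.096 without that library. The destruction complex and nuclear partner lists stay near 0, and the GSK3 regulators are at -0.070, or -0.045 with the covariates.

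Genes whose level followed each of the 10 most closely were found by Pearson's r over 30 libraries after group means were subtracted, among 13826 genes with a mean of at least 50, as a description of these libraries with no p. Gsk3a was most alike to Dmtn (r = 0.953), Zmiz2 (0.949) and the neuronal splicing factor gene Rbfox3 (0.945). Gsk3b was most alike to Nedd4l (0.876), so the kinase genes did not share their nearest genes, and their r with each other was 0.375. Fzd7 was most alike to Cyp2j6 (0.915), Col9a2 (0.888) and Akap12 (0.887), and HT lithium male 4, with its high Fzd7, is among the libraries behind these r. Nkd1 was most alike to Col17a1 (0.792) and Aldh1l1 (0.77), and Tcf7l2 to Pde1c (0.873). Axin2 was most alike to Zbtb17, then to Ubtf (0.81) and Ddx23 (0.808). Ctnnb1 was most alike to Kdm4b (0.832), Znrf3 to Itga1 (0.811), Lef1 to Ccdc59 (0.718) and Rnf43 to Ltbp1 (0.659). Lef1 and Axin2 had an r of 0.163 with each other and Nkd1 and Axin2 of 0.267. All r share the libraries and their tissue composition.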

How the data were processed

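Gene counts were deposited by the authors as a normalized signal, 18240 genes in 30 columns. The submitters' processing notes name DESeq2 1.19.11, R 3.6.0, the build GRCm38 and Salmon 0.11.2, and per the labels' protocols the libraries were stranded poly(A) libraries. For the annotation, filters and strand setting: not given in the sources used here. All values were whole multiples of 1 step per library (100% whole within 0.01), which recovered the reads; in 2 columns the step lay within 0.5% of 1. Identifiers were matched to GENCODE M21 (GRCm38), and 18227 had a symbol.

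Tests used limma 3.58.1 in R 4.3.3 (trend, robust) on log2(normalized count + 1), 1 fit with a mean per group over 30 libraries (22 residual degrees of freedom), for 16824 genes with a mean of at least 10. Fold changes on this scale understate low genes. P-values were adjusted by Benjamini-Hochberg over all genes tested. Sex-averaged comparisons are the mean of both sexes. edgeR 4.0.16 and DESeq2 1.42.0 on the recovered reads, other pseudocounts, filters and scalings, covariates, a replicate block and leaving out each library were alternatives. The script was tested on simulated data.

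The counts of 42 pairs of replicates differed beyond sampling noise (chi-square over its degrees of freedom 4.84 to 32.44), so each library counted once. Members and lists were chosen with earlier results of these data known. Named genes are the 10 members, every called gene of the other lists and the 2 most abundant per kb of each list (not all are reported here); Sp5 was shown for its promoter and Rspo3 for its DESeq2 call, both chosen after values were seen. Same-numbered replicates of HT lithium and HT vehicle correlated at -0.204 to 0.084. Of 10 pairs of groups only HT vehicle and WT vehicle males had every correlation over 0.1 (0.17 to 0.278). HT fluoxetine and HT vehicle females had higher values in replicates 1, 3 and 4 (0.413, 0.392 and 0.446) but -0.108 in replicate 2. The numbers were therefore not taken to pair the libraries.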

Additional observations from a re-analysis of the deposited data

Results flagged for a closer look

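In 30 named genes and the 6 groups of 4 libraries, 180 sets of 4 values were searched for a library far from the other 3 (Dixon's ratio above its 95% critical value), and 14 were found, where chance gives about 1 in 20. Among the 10 genes, Gsk3b was high in HT fluoxetine female 2 (5827, others 5130 to 5227), Znrf3 low in HT fluoxetine male 3 (465, others 504 to 510) and Axin2 low in HT vehicle female 4 (820, others 947 to 966). Without that last library the Axin2 lithium difference in females was -0.022. Ctnnb1 was low in WT vehicle male 2 (13864, others 14458 to 14542) and Lef1 high in WT vehicle female 2 (205, others 152 to 161).

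WT vehicle female 2 was also the high library for Nkd2 (149, others 80.1 to 88.5) and Lgr4 (1018, others 669 to 698) and the low one for Map1b (27258, others 32698 to 33348). In HT lithium males, Apc was low in male 2 (18582, others 21504 to 21877) and Id2 in male 4 (2475, others 2569 to 2576). Of the remaining genes, Lgr4 was high in HT fluoxetine female 1 (845), Fzd4 was high in HT vehicle female 4 (490), Porcn was low in WT vehicle male 4 (1602) and Rspo2 was high in WT vehicle male 2 (567).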

How the results depend on the processing

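Of 55 results followed, the 10 genes were called in none of the comparisons under any alternative, except for Fzd7 in HT lithium over WT vehicle without HT lithium male 2. The sign under lithium turned with regional marker covariates for Gsk3a (0.0069), Gsk3b (0.013), Rnf43 (-0.008) and Nkd2 (-0.0089). With single libraries left out it ran from -0.053 to 0.013 for Gsk3a, -0.081 to 0.0055 for Tcf7l2, -0.031 to 0.019 for Znrf3 and -0.035 to 0.076 for Rnf43, and in females from -0.022 to 0.057 for Axin2. The Fzd4 call was lost with the replicate block (limma adjusted p = 0.052).

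Numbers of genes called over all genes moved as follows. With the compared groups alone they were 5 for lithium over vehicle, 11 for fluoxetine and 208 for HT lithium over WT vehicle. With marker covariates they were 2 in females under lithium, 64 between the drugs, 292 by genotype, 588 for HT lithium over WT vehicle and 248 by sex. DESeq2 gave 3 in females and 43 in males under lithium, 12 for fluoxetine, 14 between the drugs and 79 by sex, and a mean of at least 50 gave 68 by genotype. Leaving out 1 library gave 8 to 16 for lithium, 0 to 4 in females, 8 to 17 in males, 0 to 2 between the sexes, 3 to 7 for fluoxetine, 0 to 4 between the drugs, 88 to 116 by genotype, 196 to 503 for HT lithium over WT vehicle (with 0 to 1 of the 10 genes) and 28 to 52 by sex. The replicate block, whose numbers were not taken to pair the libraries, gave 14 for lithium over vehicle and 117 by genotype. The causes were not tested. Counting error limits Rnf43, as given above.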
